A study of Mus musculus with 4 samples.

Results

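The 9 genes described here encode signal transducers and activators of transcription (Stat2, Stat3, Stat4, Stat5a and Stat6) and Janus kinases (Jak1, Jak2, Jak3 and Tyk2). They were taken by symbol from a table of 24148 genes, after RefSeq rows had been matched to mouse symbols and the rows of a gene had been summed. Other Stat genes are not analysed here. RNA was sequenced from primary mouse microglia (brain macrophages), detached by shaking from mixed glial cultures and replated, with no sort described. Of the 4 libraries, 2 came from untreated control cells and 2 from cells given lipopolysaccharide (LPS), a component of Gram-negative bacterial outer membranes, at 10 ng/ml for 4 h. The libraries held 3617176 to 5095630 counts each. The labels name no strain, genotype or age, and leave it unstated if replicates are separate cultures, so p-values reflect no more than the scatter of these 4 samples, which may be technical.

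Receptors for interferons and many interleukins have no kinase of their own and carry Jak kinases on their inner tails. Ligand binding brings the kinases together, they phosphorylate the receptor, and Stat proteins that dock there are phosphorylated, pair up and enter the nucleus as transcription factors. In macrophages and microglia, LPS is known to induce interferon-beta, which acts back on the cells through Jak1, Tyk2 and a complex that contains Stat2. Genes for components of this pathway can themselves be interferon-inducible. Transcript levels say nothing of the phosphorylation that activates these proteins.

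Of the 9 genes, 3 reached the minimum for testing, a mean count of 10 over the 4 libraries: Stat2, Stat6 and Jak1. Stat2 rose steeply with LPS and was the 1 member called higher. In Stat6 the LPS libraries lay below the control libraries and in Jak1 above them, and neither was called. The other 6 genes had at most 11 counts in any library and were not tested. The contrast of LPS over control was tested with edgeR (quasi-likelihood), with p-values adjusted over all 9548 genes tested (Benjamini-Hochberg) and a call at an adjusted p under 0.05, by which 8.34% of genes tested were called, 6.55% higher and 1.79% lower. For all 3 tested members the groups did not overlap, which was so for 50.5% of genes tested (24.7% with LPS above control and 25.8% below).

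**Figure D1:**
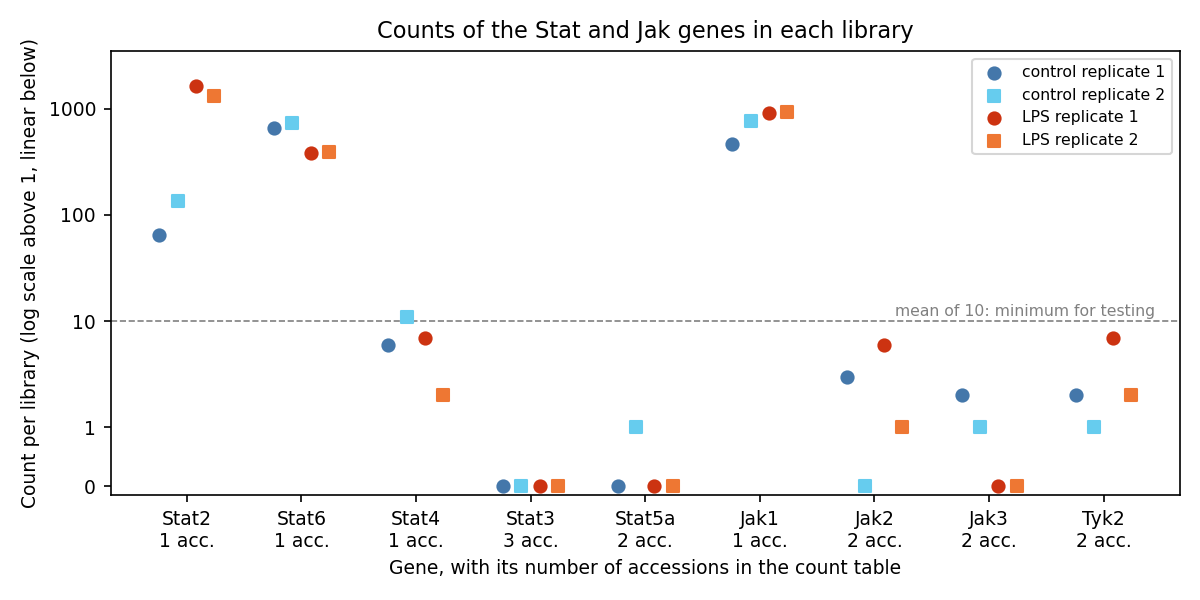
Counts of the 9 genes in each library, with a vertical axis that is logarithmic above 1 and linear below, and the number of accessions of each gene under its name. Stat2, Stat6 and Jak1, with 1 accession each, stand above the dashed line at a count of 10, and Stat2 goes from 65 and 136 counts in control to 1623 and 1313 in LPS, while Stat3 is at 0 in all 4 libraries.

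Stat2 encodes the Stat protein that joins Irf9 in the interferon-stimulated transcription complex. It lies on chromosome 10 from 128270498 to 128292853 (GRCm38). Control replicate 1 held 65 counts of Stat2 and control replicate 2 held 136, against 1623 in LPS replicate 1 and 1313 in LPS replicate 2. Each LPS library thus lay far above both controls, and control replicate 1 was the lowest. In CPM (counts scaled to the TMM-adjusted library total) the level was 21.6 ± 6.41 in control and 351 ± 51.3 in LPS (SD, n = 2 each). Stat2 was 16.2-fold higher in LPS, a log2 fold change of 4.01 ± 0.30 (SE) with an edgeR adjusted p of 0.0016. Of all genes tested, 1.49% had a log2 fold change at least as high. In bulk RNA of this kind, more RNA per cell and more cells that express a gene cannot be told apart.

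The promoters of the 3 tested genes are shown so that the called gene can be set beside the uncalled ones. Each window spans 300 bases, 250 before and 50 from a start site in the RefSeq promoter table (GRCm38.p6), 5′ to 3′ on the strand of the gene. That site is the outer end of the gene range given here for Stat2, and lies 31 bases inside the range for Stat6 and 59 bases inside it for Jak1. The windows are chr10:128270248-128270547 (plus strand) for Stat2, chr10:127642736-127643035 (plus strand) for Stat6 and chr4:101265174-101265473 (minus strand) for Jak1. Capitals mark matches to the motifs named after the sequences.
Stat2: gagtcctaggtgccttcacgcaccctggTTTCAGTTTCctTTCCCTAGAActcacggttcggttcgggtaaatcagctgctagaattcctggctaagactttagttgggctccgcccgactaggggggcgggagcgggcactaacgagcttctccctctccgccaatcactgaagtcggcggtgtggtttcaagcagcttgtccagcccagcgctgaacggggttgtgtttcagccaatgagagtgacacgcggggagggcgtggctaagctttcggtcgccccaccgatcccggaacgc
Stat6: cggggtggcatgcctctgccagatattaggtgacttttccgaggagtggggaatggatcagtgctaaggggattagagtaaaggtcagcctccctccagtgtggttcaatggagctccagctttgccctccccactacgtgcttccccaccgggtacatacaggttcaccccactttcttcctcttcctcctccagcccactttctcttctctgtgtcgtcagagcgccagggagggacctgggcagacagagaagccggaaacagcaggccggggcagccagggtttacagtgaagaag
Jak1: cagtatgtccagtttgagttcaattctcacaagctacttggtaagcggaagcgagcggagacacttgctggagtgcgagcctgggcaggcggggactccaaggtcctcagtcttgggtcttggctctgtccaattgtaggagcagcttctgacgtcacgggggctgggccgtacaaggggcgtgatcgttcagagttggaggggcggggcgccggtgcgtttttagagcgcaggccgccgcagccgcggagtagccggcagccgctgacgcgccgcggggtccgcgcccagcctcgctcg

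Both strands of each window were searched for 4 motifs. These were the core of the interferon-stimulated response element (GAAA, any 2 bases, GAAA), which interferon complexes bind, and the gamma-activated site that Stat pairs bind (TTC, any 3 bases, GAA). The others were the form of that site with 4 bases between TTC and GAA, and a 10-base NF-kB motif. Its letters were GGG, A or G, any 2 bases, C or T, C or T, then CC. Shorter forms of the NF-kB motif were not searched. The Stat2 window held the response element core as TTTCAGTTTC, its reverse-strand form, at positions -222 to -213 from the start site. It also held the 4-spacer form as TTCCCTAGAA at positions -210 to -201. The core was found in 3.44% of all 32851 promoter windows, the gamma-activated site in 8.30%, the 4-spacer form in 6.95% and the NF-kB motif in 8.46%. None of the 4 was found in the Stat6 or the Jak1 window. All 9 genes had at least 1 window, 11 in all, and the core was also found in the window of a second Stat4 start (chr1:52007990-52008289) as GAAAGTGAAA. A second Stat5a window (chr11:100860234-100860533) held an NF-kB match, GGGGCACCCC, at positions -234 to -225. A match is a run of letters and no measured binding, and a missing match says only that these letters are not in the window.

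Stat6 encodes the Stat protein through which interleukin-4 and interleukin-13 act, and it lies on chromosome 10 from 127642955 to 127660987, 609.51 kb before Stat2. Its counts were 659 and 733 without LPS and 381 and 391 with it. Both LPS libraries were alike and below both controls. Its level was 157 ± 22.8 CPM in control and 92.4 ± 1.99 CPM in LPS (SD, n = 2 each). The log2 fold change was -0.77 ± 0.21 (SE), 1.70-fold lower in LPS, and was not called by edgeR (adjusted p = 0.096, unadjusted p = 0.011). Of genes tested, 12.1% had a value at least as low. Stat6 was called lower with total-count scaling (-1.18, adjusted p = 0.022), after quantile normalization with limma-trend (-1.17, adjusted p = 0.018) and with a minimum mean count of 50 (-0.86, adjusted p = 0.046). Its adjusted p ranged from 0.018 to 0.43 over 14 alternative settings without a replicate block. Its exons share 40 bases, 0.909% of their length, with Nab2 on the other strand, and the strand setting of the counting is not given in the sources used here.

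Jak1 encodes a kinase used by all type I and type II interferon receptors and by the interleukin-6 family, and it lies on chromosome 4 from 101151974 to 101265282. Its counts were 469 and 766 in control, against 908 and 937 after LPS. The LPS libraries were close to each other and above both controls, of which replicate 1 was lower. The level was 135 ± 17.0 CPM in control and 221 ± 5.63 CPM in LPS (SD, n = 2 each). The log2 fold change was 0.71 ± 0.20 (SE), 1.63-fold higher in LPS, without a call by edgeR (adjusted p = 0.10, unadjusted p = 0.013). Of genes tested, 13.5% had a value at least as high. The value for Jak1 was 0.27 with total-count scaling and 0.20 after quantile normalization. Under those scalings the median over all genes tested was -0.48 and -0.13, against -0.05 with TMM. Relative to that median Jak1 stood at 0.75 with TMM, 0.74 with total-count scaling and 0.33 after quantile normalization, and Stat6 at -0.72, -0.70 and -1.04.

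**Figure D2:**
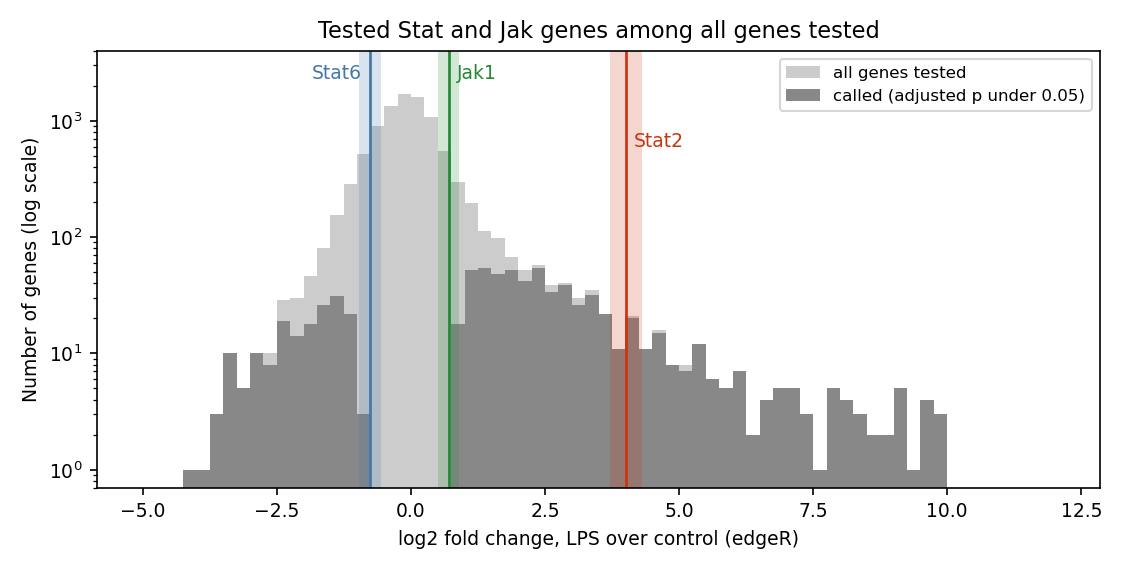
Log2 fold change of LPS over control for all 9548 genes tested (light bars) and for called genes (dark bars), with the number of genes on a logarithmic axis and the 3 tested members as lines with bands of 1 SE. Stat6 (-0.77) and Jak1 (0.71) stand on the flanks of the main peak and Stat2 (4.01) far to its right.

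Levels of the 3 genes were compared per kb of transcript, using 4394 bases for Stat2, 3775 for Stat6 and 4906 for Jak1. In control, Stat6 was the highest with 41.6 ± 6.04 CPM per kb, Jak1 followed with 27.6 ± 3.46 and Stat2 was the lowest with 4.92 ± 1.46 (SD, n = 2 each). No 2 of these 3 genes overlapped in the control libraries. In LPS the order was turned, with Stat2 at 79.9 ± 11.7, Jak1 at 45.0 ± 1.15 and Stat6 at 24.5 ± 0.528 CPM per kb, again without overlap. Among 8869 tested genes with 1 accession and a known length, Stat2 went from the percentile 44.6 of levels per kb in control to 92.7 in LPS, Stat6 from 90.0 to 79.2, and Jak1 from 84.8 to 87.8.

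Ratios within a library do not depend on how libraries are scaled to each other. The ratio of Stat2 to Stat6 per kb was 0.0847 and 0.159 in the control libraries and 3.66 and 2.88 in the LPS libraries, 28.0-fold higher in LPS by geometric means. Stat2 to Jak1 was 0.155 and 0.198 in control and 2.00 and 1.56 in LPS, 10.1-fold higher. Stat6 to Jak1 was 1.83 and 1.24 in control and 0.545 and 0.542 in LPS, 2.77-fold lower. The groups did not overlap in any of the 3 ratios, and each ratio crossed 1 between control and LPS. Both LPS libraries lay below control in Stat6 and above it in Stat2 and Jak1, so the ratios with Stat6 could not overlap. Each ratio also follows from the other 2, so they are not separate results. The share of gene pairs without overlap was not computed, and 50.5% of single genes tested did not overlap. An exact permutation test of 2 against 2 libraries cannot go below p = 0.333, so none was run.

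**Figure D3:**
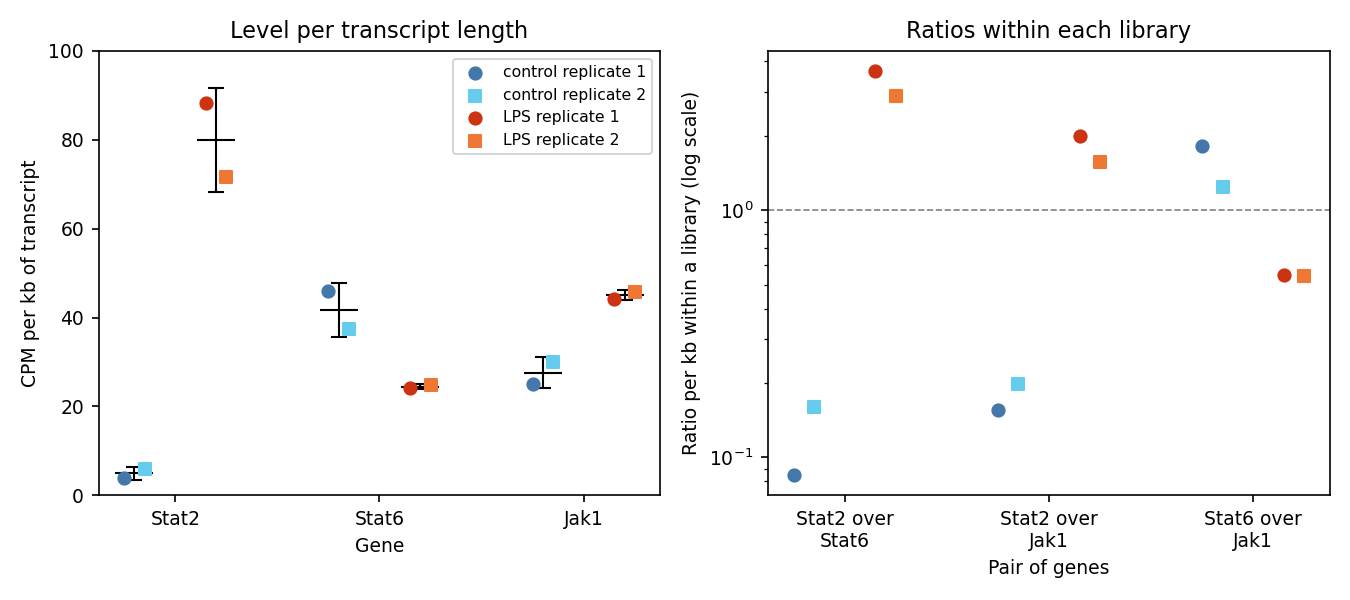
Left, level in CPM per kb of transcript for Stat2, Stat6 and Jak1 in each library, with mean and SD (black, n = 2 per group) on an axis from 0. Right, ratios between the 3 genes within each library on a logarithmic axis, where all 3 ratios cross the dashed line at 1 between control and LPS.

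The remaining 6 genes were near 0. Stat4, which carries interleukin-12 signals in lymphocytes, has 1 accession (chromosome 1, 51987106 to 52107189) with counts of 6 and 11 in control, 7 and 2 after LPS. The groups overlapped, and the ratio of LPS to control summed over libraries was 0.570, with a 95% counting interval of 0.224 to 1.35 (Clopper-Pearson). The other 5 genes have several accessions each. Jak2, the kinase of the interferon-gamma and GM-CSF receptors (chromosome 19, 29251803 to 29313095), had counts of 3 and 0 in control, 6 and 1 after LPS, a ratio of 2.51 (0.574 to 15.1). Tyk2, the partner of Jak1 at the type I interferon receptor (chromosome 9, 21104068 to 21131393), had counts of 2 and 1 in control, 7 and 2 after LPS, a ratio of 3.23 (0.807 to 18.6). Both intervals include 1 and reach up to 15.1 and 18.6, so these few counts settle neither a difference nor its absence. Jak3, the kinase of the common gamma chain of interleukin receptors (chromosome 8, 71676383 to 71690577), had 2 and 1 counts in control and 0 in both LPS libraries. Stat5a, which acts downstream of GM-CSF and prolactin (chromosome 11, 100859351 to 100885169), had a single count, in control replicate 2. Stat3, the Stat protein of interleukin-6 and interleukin-10 signals (chromosome 11, 100886806 to 100939594), was listed at 0 in every library. A count of 0 allows up to 3 counts, which is 0.577 to 0.789 CPM in these libraries. These intervals and limits cover counting error only.

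Low counts in these 5 genes went with how many accessions a gene has in the table. The 4 members with 1 accession had mean counts of 6.5 (Stat4), 541 (Stat6), 770 (Jak1) and 784 (Stat2), while the 5 members with several had 0 to 3. Across the table, 46.8% of named genes with 1 accession reached the minimum for testing, against 12.8% of those with 2 and 10.2% of those with 3 or more. In members with several accessions, 11 in all, counts lay on 1 accession per gene at most. For Jak2 it was the accession with 83 exonic bases that the other lacks, while the other has 0 bases of its own. For Stat5a it was the accession with 283 bases of its own, against 0 in the other, and for Tyk2 the one with 69, against 11. For Jak3 the counts lay on the accession with 394 bases of its own and none on that with 404. The 3 accessions of Stat3 have 1712, 136 and 0 bases of their own and held no count. Of 5302 accessions with 0 bases of their own, 90.0% were at 0 in all libraries, against 28.9% of 1330 with over 1000 bases and 6.46% of 18741 that are the only accession of their gene. Bases were counted in GENCODE models on GRCm38, whose ends can differ from the RefSeq models. The counting mode is not given in the sources used here, so the counts of Stat3, Stat5a, Jak2, Jak3 and Tyk2 were not read as transcript levels.

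**Figure D4:**
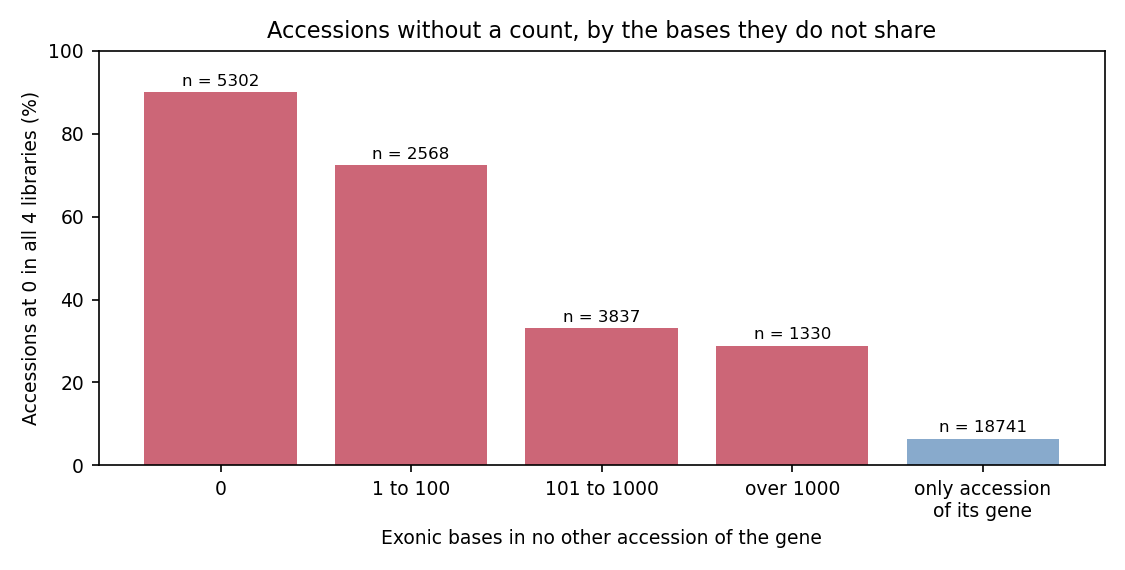
Share of accessions at 0 in all 4 libraries, in percent on an axis from 0, by the number of exonic bases that no other accession of the gene covers (red), and for accessions that are alone in their gene (blue). The share falls from 90.0% with 0 such bases to 28.9% with over 1000, and is 6.46% for lone accessions.

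Some members also share exons or borders with other genes. Stat3 and Stat5a lie 1636 bases apart in RefSeq and share 72 exonic bases in the GENCODE models, and Jak3 shares 404 exonic bases with Insl3 on the same strand. Tyk2 shares 554 with an antisense gene. The largest share was in Stat4, with 1033 exonic bases, 26.7% of its exon length, also in Gm28177 on the same strand. The low counts of Stat4 carry that limit too. Stat2 shares none with another gene, and Jak1 shares 4 with Raver2. Within 100 kb of Stat2, 7 other genes were tested, and the 2 that were called, named after their values were seen, were Il23a and Coq10a. Il23a, a subunit of interleukin-23 that starts beyond the end of Stat2 (chromosome 10, 128296140 to 128298084), went from counts of 3 and 8 to 51 and 69 after LPS and rose by a log2 of 3.55 ± 0.47 (edgeR adjusted p = 0.010). Coq10a, a coenzyme Q binding protein gene, fell by 1.98 on the log2 scale (adjusted p = 0.026). Its call was lost when any 1 of the 4 libraries was left out (adjusted p of 0.051 to 0.18; range over settings without a block 0.014 to 0.18). The 4 tested genes within 100 kb of Stat6 had log2 fold changes of -1.35 to 0.26, with a lowest adjusted p of 0.15. By Euclidean distance between centred log2(CPM + 0.5) profiles over the 4 libraries, the tested genes nearest to Stat2 were Oas1a (0.17), an antiviral synthetase, and Ddx58 (0.19), the RNA sensor RIG-I. Their log2 fold changes were 4.19 and 4.10.

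Genes that act before and after the 9 members were described by lists. Over all genes tested the median log2 fold change was -0.05. The share called higher was 6.55% of all genes tested, and 1.79% were called lower. Of 11 tested cytokine ligands, 7 rose. All 7 had a control mean count under 10 and so were tested only because of their LPS counts, and the other 12 ligands in the table were not tested, so the share is no measure of the list. Without the filter on low counts 8 of 21 ligands were called higher, against 3.91% of 21352 genes. Ifnb1, which encodes interferon-beta, went from counts of 0 and 1 to 57 and 57 after LPS, a ratio from counts of 123 (interval 21.6 to 4893; edgeR adjusted p = 0.0043). Without control replicate 1 that ratio was 70.9, and without control replicate 2 Ifnb1 was at least 17.3-fold higher. Il6, the ligand whose signal runs through Stat3, rose by 9.51 ± 0.34 on the log2 scale. Il27 rose by 8.68 ± 0.44, and its ratio from counts without control replicate 2 was 735 (132 to 29034). Csf3, with 0 control counts, was at least 77.6-fold higher against a floor of 3 counts in the pooled controls, and at least 44.8-fold without control replicate 1 or 32.8-fold without control replicate 2.

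Of 23 tested receptor chains, 1 was higher and 2 were lower (median 0.08). The 1 higher chain is near the share of 6.55% over all genes tested. The 2 lower chains are above the share of 1.79%, though they are only 2 genes. DESeq2 called 4 of the 23 chains higher, beside 741 of 9548 genes. Both LPS libraries lay above both controls in 9 chains and below them in 3, beside 24.7% and 25.8% of genes tested. Without the filter, 4 of 35 were higher and 2 lower, beside 835 higher and 205 lower of 21352 genes. Il13ra1, a chain of the receptor for interleukin-4 and interleukin-13 whose signal runs through Stat6, went from 82.5 ± 18.2 to 247 ± 15.4 CPM, 2.99-fold higher (edgeR adjusted p = 0.015). Il6ra, the interleukin-6 receptor, went from counts of 63 and 81 to 13 and 17 after LPS and fell by 2.15 on the log2 scale (adjusted p = 0.017). Il7r fell by 2.09 (adjusted p = 0.018). All 3 calls were lost without either LPS library (adjusted p of 0.066 to 0.13). The call of Il13ra1 was also lost with total-count scaling (1.13, 0.065) and after quantile normalization (1.12, 0.070). Adjusted p over the settings without a block ranged from 2.3e-05 to 0.077 for Il13ra1, from 0.0024 to 0.13 for Il6ra and from 7.7e-06 to 0.11 for Il7r.

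Among inhibitors of the pathway 3 of 15 tested genes were higher and 1 lower (median 0.40), beside 6.55% and 1.79% of all genes. Usp18, which binds the type I interferon receptor beside Jak1 and dampens it, went from counts of 28 and 38 to 2285 and 2240 after LPS, 73.5-fold higher (adjusted p = 2.9e-04). Socs3, the inhibitor of interleukin-6 family signals, rose by 4.51 ± 0.37. Socs7 rose by 1.44 (adjusted p = 0.016) and Socs6 fell by 1.68 (adjusted p = 0.012), and both lost their calls without either LPS library (adjusted p of 0.053 to 0.12; range over settings without a block 2.7e-04 to 0.12 for Socs7 and 2.3e-05 to 0.090 for Socs6). Of 10 tested partners and coactivators 1 rose (median 0.21), which is near the 6.55% of all genes. This was Kpna3, an importer of proteins into the nucleus (2.60 ± 0.22; 1.89 after quantile normalization). Irf9, the partner of Stat2, was chosen after its values were seen. It has 3 accessions, had counts of 1 and 1 in control, 23 and 11 after LPS, and was not tested because its mean count was 9. Its ratio from counts was 18.3 (4.70 to 157), and 11.9 (2.59 to 110) without LPS replicate 1.

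The list of genes known as targets of the Stat2 complex had all 18 tested genes higher (median 6.05), against 6.55% of all genes tested. Of these, 4 had a control mean count under 10 and were tested only because of their LPS counts. The other 2 genes of the list, Mx2 and Irf7, have several accessions, were at 0 in all 4 libraries and were not tested. Like all lists here, this one was chosen with earlier results of these data known. Rsad2, Cmpk2, Ifit1 and Oasl1 led it with log2 fold changes of 9.96 ± 0.36, 9.65 ± 0.45, 9.51 ± 0.48 (10.22 without control replicate 1) and 8.32 ± 0.43. Of 15 tested genes known as Stat3 targets 4 rose (median 0.73): Socs3, the kinase gene Pim1 (3.86 ± 0.44), the AP-1 factor Junb (1.96 ± 0.20) and the TNF receptor Tnfrsf1a (1.13, adjusted p = 0.040). All genes gave 6.55% higher. The call of Tnfrsf1a was lost in 6 settings, which included leaving out control replicate 2 or either LPS library (adjusted p of 0.091 to 0.25; range over settings without a block 0.0063 to 0.25). Of 8 tested genes known as Stat5 targets 1 rose, which was Pim1 again (median 0.54, beside 6.55% of all genes). Of 5 tested genes known as Stat6 targets 2 rose (median 0.17): the chemokine Ccl22 (2.98 ± 0.35) and the transglutaminase Tgm2 (2.56 ± 0.35). All genes tested gave 6.55% higher. Ccl22 was tested only because of its LPS counts, and without the filter 2 of 16 were higher, beside 3.91% of 21352 genes. The alternative activation markers Arg1 and Mrc1 had values of -0.84 ± 0.51 and 0.17 ± 0.41 and Klf4 -0.29 ± 0.36, without a call, and the sign of Mrc1 changed in 4 settings. Many of these genes have other known regulators, NF-kB among them, and the lists overlap.

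**Figure D5:**
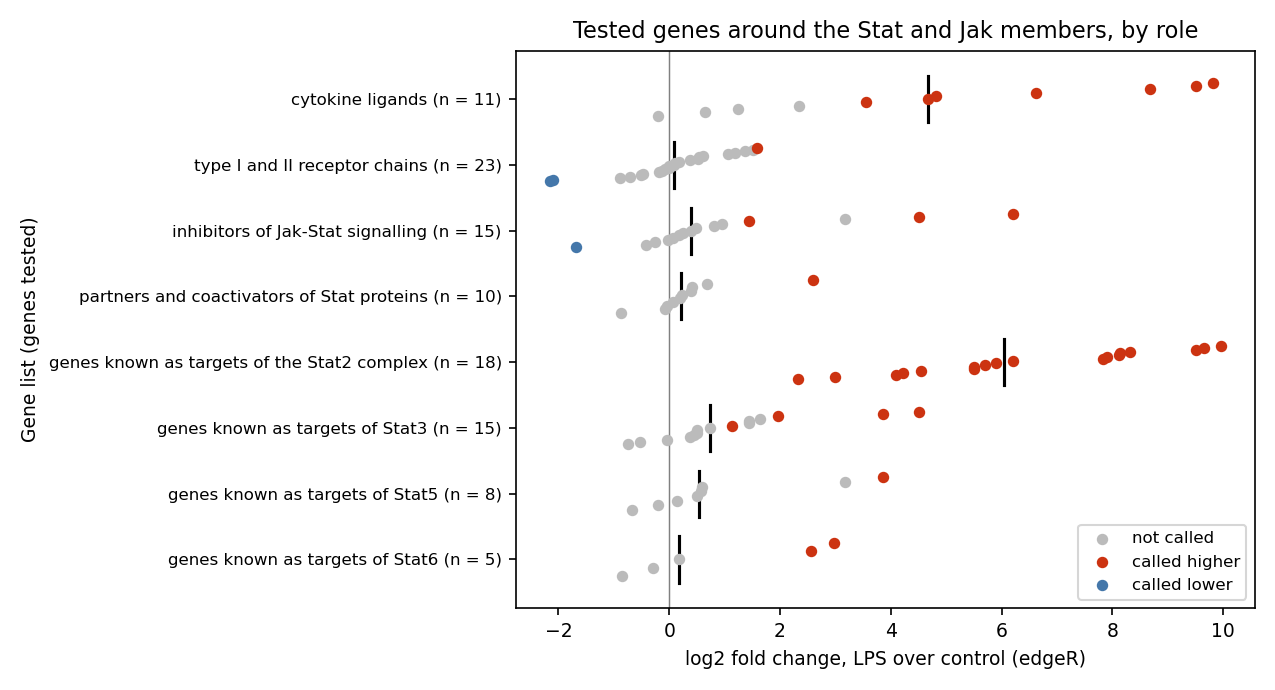
Log2 fold change of LPS over control for each tested gene of 8 lists around the Stat and Jak members, with black bars at list medians. All 18 tested genes known as targets of the Stat2 complex are called higher, while 20 of 23 receptor chains are not called. The point for Csf3 (9.81) is a fitted value over 0 control counts.

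Markers of microglia and of other cells were read beside these results. Of 12 microglia markers 9 were tested, 0 of them called by edgeR (4 at an unadjusted p under 0.05, 0 by DESeq2). The 12 markers summed to 2613 and 1840 CPM in control replicates 1 and 2, and to 1666 and 1310 CPM in LPS replicates 1 and 2. The sum was thus higher in the library numbered 1 of each group. Itgam, which has 2 accessions, was at 0. In lymphocytes Stat4 and Jak3 are known to be abundant. The 15 lymphocyte markers summed to 13.7 to 21.8 CPM in control and 6.48 to 16.5 CPM in LPS. Cd8a, Lck and Klrb1c were at 0, but each has several accessions, so these counts of 0 were not read as absence. Cd4 had counts of 52 and 12 in control and 46 and 7 in LPS, higher in the library numbered 1 of each group. Oligodendrocyte markers summed to 421 and 434 CPM in the libraries numbered 1 and to 68.7 and 61.2 CPM in those numbered 2, so they moved with the replicate number. Astrocyte markers summed to 120 and 136 CPM in the libraries numbered 1 and to 321 and 449 CPM in those numbered 2. Neuron, fibroblast, endothelium and monocyte or neutrophil markers each summed to at most 68.4 CPM in a library. Stat2 was higher in LPS within both numbers, by a log2 of 4.50 and 3.59, Stat6 stood at -0.93 and -0.59 and Jak1 at 0.81 and 0.61. The part of other cells in the values of the members was not tested.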

How the data were processed

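The deposited table gives, for 32915 RefSeq accessions, a whole-number count in each of 4 libraries. It is called normalized by its name, but its totals differ between libraries and it was treated as counts. Per the submitters' processing notes, the tools included HTSeq 0.6.1 for an unstated role, TopHat2 2.0.10, Cufflinks 2.2.1, Trimmomatic 0.33 and CASAVA 1.8.2, with build mm10. What each did, and with which annotation, is not given in the sources used here. Accessions were matched to symbols by a RefSeq table of GRCm38.p6 (32487) or GENCODE metadata (187), 241 matched neither, and counts were summed per gene. The 9548 genes whose mean count reached 10 entered edgeR 4.0.16 (R 4.3.3) with TMM scaling, glmQLFTest, all 4 libraries, no covariate. The SE is the log2 fold change divided by the root of F. Alternatives used DESeq2 1.42.0, limma 3.58.1 (log2(count + 1)), other scalings, filters, accession rules, a replicate block and each library left out. Fits and motif search were tested on simulated data. Members, lists and tests were chosen with earlier results of these data known. All 9 members were named, with up to 4 called genes of largest change per list, all genes of lists with 5 or fewer tested, and the 2 nearest profiles of a called member. Leaving out 1 library leaves 1 in its group, which is assumed to vary like the other group. Counting intervals and floors cover counting error only. No protein sequences were used here.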

Additional observations from a re-analysis of the deposited data

How the results depend on the processing

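Stat2 kept its direction and its call in all 15 alternative settings, at a log2 fold change of 3.55 to 4.33, and was the 1 member called higher in all but the fit with the replicate number as a block. Stat6 and Jak1 kept their signs in all 15. Stat6 was called lower, so that 1 member was lower in place of 0, with total-count scaling (-1.18), quantile normalization (-1.17), a minimum mean count of 50 (-0.86) and the replicate block. The count of 0 lower members in edgeR stood beside 1 lower member at an unadjusted p under 0.05, and DESeq2 also called 0 lower.

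The labels do not say that a replicate number marks a shared culture or day. Differences between libraries 1 and 2 correlated at r = 0.66 between control and LPS over 9548 genes, which are not independent. With the replicate number as a block, 1677 genes were called higher and 1258 lower, in place of 625 and 171, and 2 members were called higher and 1 lower: Stat2 (3.99), Jak1 (0.71, adjusted p = 9.9e-05) and Stat6 (-0.76, adjusted p = 1.2e-04). The block raised the calls in the lists too, to 7 higher receptor chains, 6 inhibitors, 3 partners, 11 Stat3 targets and 4 Stat5 targets, with 1 partner and 1 Stat3 target lower.

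Genes called lower numbered 483 with total-count scaling and 322 after quantile normalization, so that higher genes made up 78.5% of calls with TMM, 49.4% with total counts and 62.0% after quantile normalization. With each library left out in turn, 335 to 629 genes were higher and 33 to 260 lower, the lowest numbers without LPS replicate 1 and the highest number of lower genes without control replicate 2. Over the settings without a block, higher receptor chains numbered 0 to 4 and lower ones 0 to 2, cytokine ligands 3 to 8 (3 with the minimum of 50), Stat3 targets 3 to 6, Stat5 and Stat6 targets 1 to 2, inhibitors 2 to 4, partners 1 to 2 and targets of the Stat2 complex 16 to 18. Lower partners numbered 1 with total-count scaling, quantile normalization and the minimum of 50, lower Stat3 targets 1 with total-count scaling, and lower inhibitors 0 without either LPS library. Mrc1 changed sign to -0.23 with total-count scaling, to -0.14 after quantile normalization, and ranged from -0.27 to 0.73 with each library left out in turn (negative without control replicate 2 or LPS replicate 1). The causes were not tested. Stat4, Jak2 and Tyk2 have counting intervals that span 1.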
